A study of Homo sapiens with 14 samples.

Results

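The expression of 10 genes for enzymes that modify and cross-link collagen was examined in prostate and colon cancer cells under low oxygen. They were taken from the count tables by gene symbol, as 10 of 23106 genes, and the choice was made with earlier results of these data known. They are the 3 genes for the alpha subunits of collagen prolyl 4-hydroxylase (P4HA1, P4HA2 and P4HA3), the gene for its beta subunit (P4HB), the 3 lysyl hydroxylase genes (PLOD1, PLOD2 and PLOD3) and 3 of the 5 lysyl oxidase genes (LOX, LOXL1 and LOXL2). PC3 is a prostate cancer cell line and HCT116 a colon cancer cell line. Cells were kept in normoxia (21% O2) or hypoxia (0.5% O2) for 16 h before polyadenylated RNA was sequenced. PC3 was represented by 4 normoxic and 4 hypoxic libraries, and HCT116 by 3 of each. No gene was altered in either line and the only treatment was the oxygen level. PC3 was grown in DMEM/Ham's F12 and HCT116 in McCoy's 5a medium, both with fetal bovine serum, so line and medium cannot be told apart. Each group is a culture of an established line without the stromal cells that make most collagen in a tissue.

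Collagen chains are modified in the endoplasmic reticulum before they fold. Prolyl 4-hydroxylases hydroxylate proline, which stabilises the triple helix, and lysyl hydroxylases hydroxylate lysine. Both are dioxygenases that use oxygen, iron, 2-oxoglutarate and ascorbate. Lysyl oxidases are copper enzymes that act on the secreted protein outside the cell and oxidise lysine and hydroxylysine, from which the cross-links between collagen molecules form. The hypoxia-inducible factors (HIF) bind DNA at short sequences with the core ACGTG or GCGTG, and several genes of these families are known to be induced in hypoxia.

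The promoter window of each gene, taken as 250 bases before and 50 bases from the annotated start of the RefSeq gene (GRCh38.p14), was available for 8 of the 10 genes. P4HA3 and LOXL2 had no entry. The windows of P4HA1 and PLOD2, which changed most in HCT116, of PLOD1, of LOX, which changed most in PC3, and of PLOD3, whose change passed the test in neither line, are printed 5′ to 3′ on the strand of the gene. Capitals mark ACGTG or GCGTG on that strand and their reverse complements CACGT and CACGC.
P4HA1, chr10:73096817-73097116, reverse strand: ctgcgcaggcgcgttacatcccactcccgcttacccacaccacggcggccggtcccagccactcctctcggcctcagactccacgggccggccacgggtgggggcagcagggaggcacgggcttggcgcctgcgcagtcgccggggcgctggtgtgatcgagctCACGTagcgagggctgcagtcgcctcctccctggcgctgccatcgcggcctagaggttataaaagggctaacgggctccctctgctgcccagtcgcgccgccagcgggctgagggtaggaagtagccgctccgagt
PLOD2, chr3:146161135-146161434, reverse strand: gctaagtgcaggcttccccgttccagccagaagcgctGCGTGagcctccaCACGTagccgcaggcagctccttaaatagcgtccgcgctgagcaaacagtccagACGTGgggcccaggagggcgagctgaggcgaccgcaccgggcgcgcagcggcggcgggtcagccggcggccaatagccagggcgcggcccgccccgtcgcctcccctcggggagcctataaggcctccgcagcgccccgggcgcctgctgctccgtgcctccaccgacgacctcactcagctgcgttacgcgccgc
PLOD1, chr1:11934467-11934766, forward strand: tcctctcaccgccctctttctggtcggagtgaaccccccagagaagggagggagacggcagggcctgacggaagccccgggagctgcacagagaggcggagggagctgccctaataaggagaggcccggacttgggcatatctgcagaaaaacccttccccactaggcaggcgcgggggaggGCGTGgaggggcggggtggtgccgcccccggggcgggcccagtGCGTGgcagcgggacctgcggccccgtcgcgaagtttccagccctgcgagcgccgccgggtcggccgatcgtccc
LOX, chr5:122078210-122078509, reverse strand: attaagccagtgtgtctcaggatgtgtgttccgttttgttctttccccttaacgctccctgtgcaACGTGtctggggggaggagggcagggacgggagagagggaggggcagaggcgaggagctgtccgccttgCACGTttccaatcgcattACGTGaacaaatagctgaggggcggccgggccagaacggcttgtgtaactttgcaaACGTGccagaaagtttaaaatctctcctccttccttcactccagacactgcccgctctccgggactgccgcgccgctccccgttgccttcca
PLOD3, chr7:101217532-101217831, reverse strand: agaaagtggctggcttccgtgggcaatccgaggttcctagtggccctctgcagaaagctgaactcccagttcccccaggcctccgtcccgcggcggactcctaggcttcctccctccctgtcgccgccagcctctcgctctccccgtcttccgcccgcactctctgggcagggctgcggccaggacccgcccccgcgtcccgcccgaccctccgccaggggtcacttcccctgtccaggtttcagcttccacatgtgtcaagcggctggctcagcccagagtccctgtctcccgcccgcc

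ACGTG was found in 3 of these 8 windows (P4HA1, PLOD2 and LOX) and GCGTG in 3 (PLOD1, PLOD2 and P4HB), so that 5 of 8 held at least 1 of them on either strand. Over all 35116 RefSeq windows of the same length, ACGTG was present in 21.4%, GCGTG in 36.5% and either in 48.4%. These shares took every window and not only the first of each gene. P4HA1 had a single match, on the reverse strand, starting at position -86 from the gene's start. PLOD2 had matches at -213, -200 and -146, and LOX had 4, at -185, -116, -98 and -42. The further LOX windows, left out of the counts, each held 1 ACGTG and 1 GCGTG. The PLOD1 window held GCGTG at -68 and -25. The windows of P4HA2, LOXL1 and PLOD3 held neither sequence. A match gives only the position of these letters, and binding was not measured in these libraries.

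Total counts were 71228454 to 123935458 per library in PC3 and 133067391 to 150630928 in HCT116, and the PC3 hypoxia libraries were the shallowest, at 71228454 to 96159803. As a check of the treatment, 8 of 8 established hypoxia-response genes (CA9, NDRG1, VEGFA, EGLN3, ADM, PDK1, BNIP3 and SLC2A1) rose in both lines. NDRG1 rose from 346 to 2532 CPM (counts per 1000000 counts) in PC3 and from 77.0 to 523 CPM in HCT116. Epithelial markers (EPCAM, CDH1, KRT8, KRT18 and KRT19) were all present, with summed levels of 3555 to 5147 CPM over the libraries. Of the prostate markers, HOXB13, TMPRSS2 and ACPP reached 1 CPM in PC3 (ACPP only just, at 1.02 and 1.30), whereas KLK3 was at 0 and KLK2 and FOLH1 were below 0.1 CPM. HOXB13 was not restricted to PC3, at 10.0 and 10.1 CPM in HCT116 beside 81.0 and 74.7 CPM in PC3, while TMPRSS2 and ACPP were below 0.1 CPM in HCT116. Of 8 colon markers, CDX2 reached 1 CPM in both HCT116 conditions and KRT20 in normoxia, and CDX1 was at 0. The 10 fibroblast markers summed to 7.52 to 15.2 CPM in every library, most of it COL1A1, and DCN was at or near 0, as was COL1A2. Levels are given below in CPM after scaling over all 14 libraries. Fold changes are on the log2 scale with their standard error (SE), tested with edgeR's quasi-likelihood test across all genes, with p-values adjusted by the Benjamini-Hochberg method.

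In a fit that did not use the replicate number, hypoxia raised 6 of the 10 genes in each line and lowered none past an adjusted p of 0.05. In PC3 these were P4HA1, P4HA2, PLOD1, PLOD2, LOX and LOXL2, and in HCT116 they were P4HA1, P4HA2, P4HB, PLOD1, PLOD2 and LOXL2. Among all genes tested, 6.03% rose and 5.29% fell in PC3, and 14.6% rose and 11.3% fell in HCT116. With the replicate number as a block, by which the PC3 libraries pair, 8 of the 10 rose in PC3 (P4HB and LOXL1 added) and none fell. In that fit 2125 of the 14309 genes tested in PC3 rose and 1949 fell. The block called the same 6 genes in HCT116, where 2098 of 14120 genes rose. The median log2 fold change of the 10 genes was 0.72 in PC3 and 0.99 in HCT116, against 0.0023 and 0.0018 over all genes. Every hypoxic library lay above every normoxic library for 7 of the 10 genes in PC3 and for 7 in HCT116, as for 9.62% and 20.3% of all genes tested. Every hypoxic library lay below every normoxic library for 1 of the 10 in PC3 (P4HA3, without passing the test) and for none in HCT116, as for 11.3% and 22.2% of all genes.

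**Figure D1:**
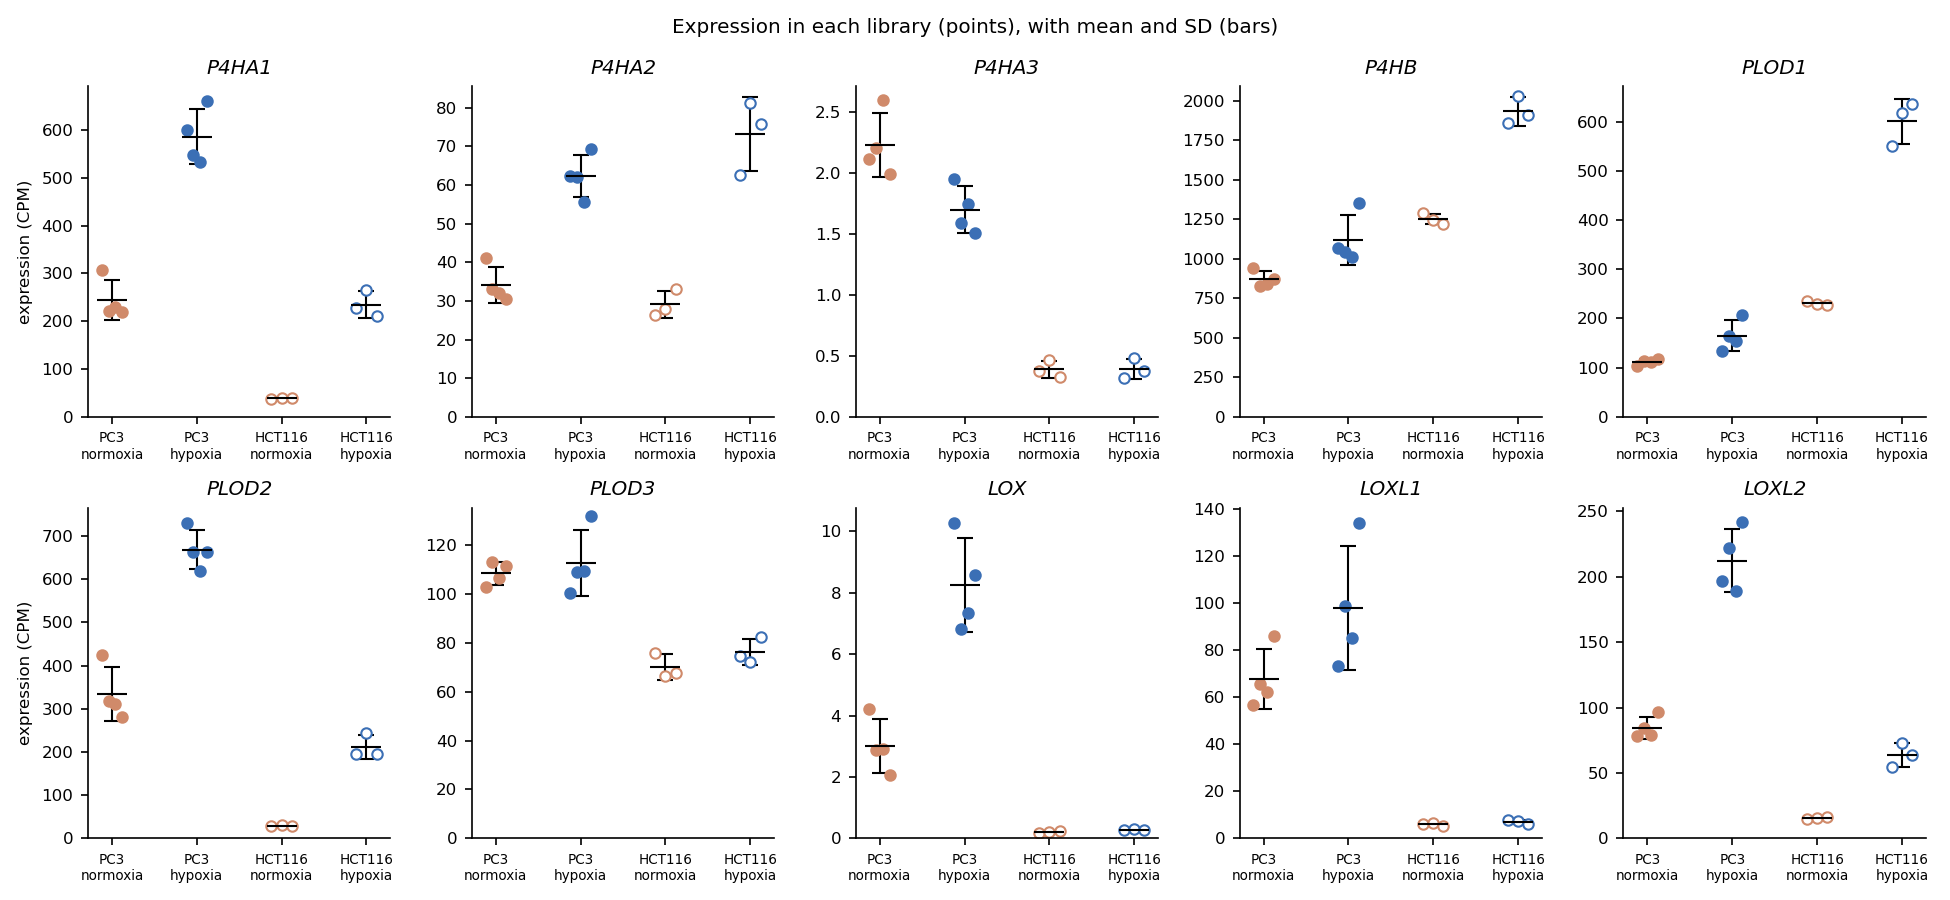
Expression of the 10 genes in CPM (linear axis from 0, a separate scale for each gene) in each library; filled points are PC3, open points HCT116, orange normoxia and blue hypoxia, and bars give the mean and SD of 4 or 3 libraries. P4HA1 lay between 219 and 307 CPM in normoxic PC3 and between 534 and 661 CPM in hypoxia, while PLOD3 overlapped between the conditions in both lines.

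P4HA1 encodes the alpha subunit that carries the catalytic site in the major form of the enzyme (GRCh37 chr10:74766975-74856732, reverse strand). In normoxic PC3 the 4 libraries were at 307, 222, 231 and 219 CPM, and in hypoxia at 599.8, 549, 534 and 661 CPM. The conditions were well apart, and replicate 1 was the highest of the normoxic libraries. The fold change was 2.40 (log2 1.26, SE 0.13, adjusted p = 7.04e-04). In HCT116 P4HA1 was at 36.3, 40.2 and 38.6 CPM in normoxia and at 227, 266 and 211 CPM in hypoxia. This was a 6.19-fold rise (log2 2.63, SE 0.094, adjusted p = 1.50e-08), which ranked 26 of the 14120 genes tested in HCT116 by fold change.

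P4HA2, the second alpha subunit (chr5:131525840-131631008, reverse strand), was at 41.1, 33.1, 32.1 and 30.6 CPM in normoxic PC3 and at 62.3, 62.0, 55.7 and 69.3 CPM in hypoxia. In HCT116 the levels were 26.3, 27.9 and 33.2 CPM and then 62.7, 81.3 and 75.7 CPM. The conditions did not overlap in either line. The log2 fold change was 0.87 (SE 0.11, adjusted p = 0.00194) in PC3 and 1.35 (SE 0.11, adjusted p = 8.51e-06) in HCT116. P4HA3, the third alpha subunit (chr11:73946846-74022685, reverse strand), was scarce. It was at 1.99 to 2.60 CPM in normoxic and 1.50 to 1.95 CPM in hypoxic PC3, with a log2 fold change of -0.38 (SE 0.15, adjusted p = 0.135). In HCT116 it was covered by only 44 to 67 counts per library, and the log2 fold change was 0.028 (SE 0.28, adjusted p = 0.955).

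P4HB (chr17:79801035-79818732, reverse strand) encodes protein disulfide isomerase, which holds the alpha subunits in a soluble, active form and also forms disulfide bonds in many other proteins. It was the most abundant of the 10 genes in CPM in every library. In PC3 it was at 944, 826, 838 and 872 CPM in normoxia and at 1068, 1043, 1009 and 1352 CPM in hypoxia. The conditions did not overlap, but the log2 fold change of 0.37 (SE 0.10) missed the threshold, with an adjusted p of 0.0533. The adjusted p was 0.0178 with the replicate number as a block, 0.00986 with the DESeq2 tool and 0.0135 in 1 fit over all 14 libraries. Over 17 alternatives it lay between 0.00986 and 0.157. Without hypoxia replicate 4, the highest library, the log2 fold change was 0.27 (adjusted p = 0.0407), and P4HB also passed without normoxia replicate 1 (adjusted p = 0.0453). In HCT116 P4HB rose from 1287, 1248 and 1220 CPM to 1858, 2032 and 1908 CPM (log2 0.64, SE 0.063, adjusted p = 4.26e-05).

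Among the lysyl hydroxylases, PLOD2 responded most. It encodes the enzyme that hydroxylates the lysines of the collagen telopeptides (chr3:145752926-145881512, reverse strand). In PC3 its libraries were at 423, 319, 311 and 281 CPM in normoxia and at 731, 662, 619 and 663 CPM in hypoxia. In HCT116 they were at 28.3, 30.1 and 28.4 CPM and then at 194, 244 and 196 CPM. The conditions were well apart in both lines. PLOD2 rose 2.01-fold in PC3 (log2 1.01, SE 0.13, adjusted p = 0.00240) and 7.38-fold in HCT116 (log2 2.88, SE 0.096, adjusted p = 1.04e-08), which was the largest change of the 10 genes in HCT116 and ranked 21 of 14120 genes by fold change.

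PLOD1, a lysyl hydroxylase of the helical part of collagen (chr1:11994262-12035595, forward strand), was at 103, 114, 110.4 and 118 CPM in normoxic PC3 and at 133, 165, 155 and 207 CPM in hypoxia. The log2 fold change was 0.57 (SE 0.12, adjusted p = 0.0161). This call was lost without normoxia replicate 2 (adjusted p = 0.0551) and without normoxia replicate 3 (adjusted p = 0.0608), and over all 17 alternatives the adjusted p lay between 2.48e-04 and 0.0608. In HCT116 PLOD1 rose from 234, 229 and 227 CPM to 549, 616 and 635 CPM (log2 1.40, SE 0.068, adjusted p = 1.12e-07). PLOD3, which also transfers glucose and galactose to hydroxylysine (chr7:100849258-100861701, reverse strand), passed the test in neither line. It was at 103 to 113 CPM in normoxic and 100.5 to 132 CPM in hypoxic PC3 (log2 0.060, SE 0.084, adjusted p = 0.684), and at 66.6 to 76.1 and 72.2 to 82.2 CPM in HCT116 (log2 0.14, SE 0.073, adjusted p = 0.180). The PC3 value had the opposite sign, -0.019, without hypoxia replicate 4.

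LOXL2, a lysyl oxidase that acts on collagen IV among other substrates and lies on chromosome 8, rose in both lines. In PC3 it was at 78.5, 84.5, 78.6 and 96.5 CPM in normoxia and at 197, 222, 189 and 242 CPM in hypoxia (log2 1.33, SE 0.097, adjusted p = 1.30e-04). In HCT116 it was at 15.0, 15.9 and 15.9 CPM and then at 54.2, 72.9 and 64.0 CPM (log2 2.05, SE 0.098, adjusted p = 1.03e-07). The hypoxic libraries of both lines lay above all of their normoxic libraries. The change was 2.52-fold in PC3 and 4.13-fold in HCT116.

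LOX (chr5:121398890-121414108, reverse strand), the founding member of the family, was scarce in both lines. In PC3 it was at 4.20, 2.88, 2.90 and 2.05 CPM in normoxia and at 10.3, 6.83, 7.34 and 8.57 CPM in hypoxia, the largest change of the 10 genes in that line (2.75-fold, log2 1.46, SE 0.22, adjusted p = 0.00466). In HCT116 only 26 to 41 counts per library were assigned to LOX. The levels there were 0.174, 0.213 and 0.224 CPM in normoxia and 0.280, 0.295 and 0.276 CPM in hypoxia, which did not overlap, but the log2 fold change of 0.49 (SE 0.31) did not pass the test (adjusted p = 0.270). LOXL1, which acts in elastic fibres (chr15:74218330-74244478, forward strand), was at 56.7, 65.5, 62.2 and 85.9 CPM in normoxic PC3 and at 73.4, 98.9, 85.0 and 134 CPM in hypoxia. The conditions overlapped (log2 0.54, SE 0.18, adjusted p = 0.0911). Within each of the 4 replicate numbers hypoxia was higher, by 0.37 to 0.64 on the log2 scale, and with the replicate number as a block LOXL1 passed the test (adjusted p = 0.00169), while the adjusted p over 17 alternatives lay between 0.00169 and 0.224. LOXL1 also passed with DESeq2 (adjusted p = 0.0283), in 1 fit over all 14 libraries (adjusted p = 0.0381) and without hypoxia replicate 1 (adjusted p = 0.0466). In HCT116 LOXL1 was at 5.26 to 6.58 CPM in normoxia and 6.18 to 7.61 CPM in hypoxia (log2 0.25, SE 0.11, adjusted p = 0.132).

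Several libraries stood out over these genes. In PC3 hypoxia, replicate 4, the shallowest library, was the highest for 7 of the 10 genes. In PC3 normoxia, replicate 1 was the highest for 5 genes and the lowest for 4. In HCT116 hypoxia, replicate 2 was the highest for 7. With replicate 1 of both PC3 conditions left out, 6 genes were still called higher in PC3 and none lower. The annotated exons of LOX overlap 138 bases of SRFBP1 on the opposite strand, those of P4HA3 overlap 166 bases of PPME1, those of PLOD3 overlap 102 bases of ZNHIT1, and those of LOXL2 share 120 bases with ENTPD4 on the same strand. Exons of P4HA2, P4HB and LOXL1 overlap 548, 529 and 335 bases of opposite-strand genes not found by name among the genes counted. LOXL2, P4HA1 and P4HA3 also overlap such genes, by 178, 47 and 38 bases. Whether counting used the strand was not stated, and the effect of these overlaps on the values was not tested.

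**Figure D2:**
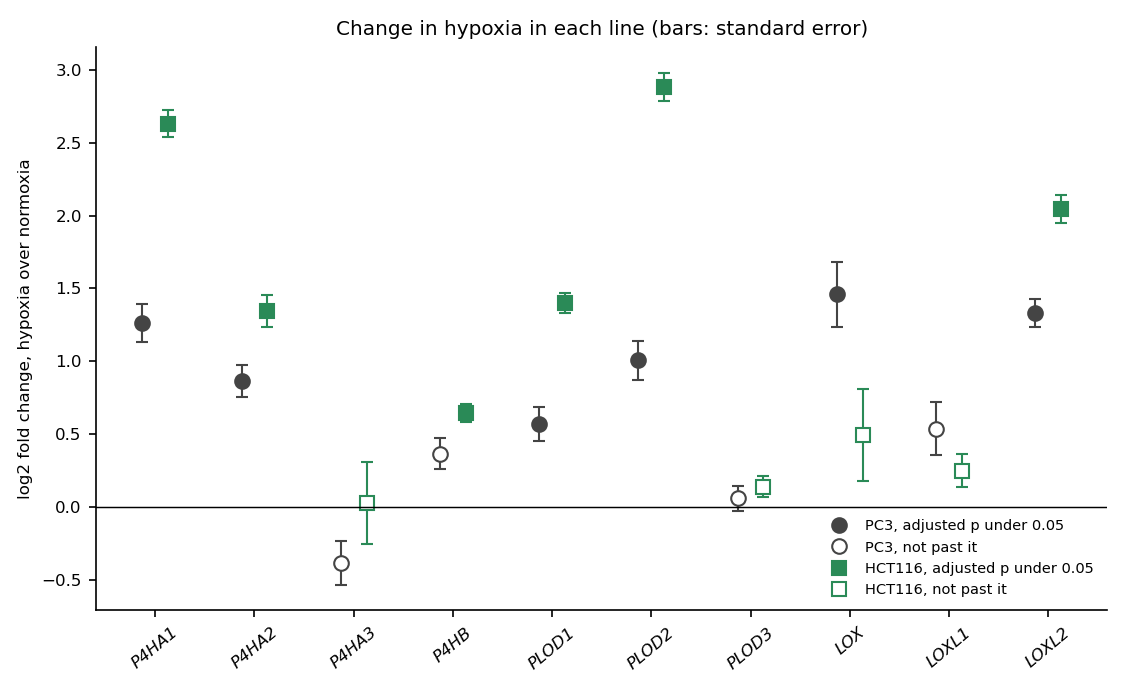
Log2 fold change in hypoxia over normoxia of the 10 genes in PC3 (circles) and HCT116 (squares); error bars are standard errors and filled symbols passed an adjusted p of 0.05. P4HA1, PLOD1, PLOD2 and LOXL2 lay higher in HCT116 than in PC3, by a difference that passed its own test. P4HA2, P4HA3, P4HB and PLOD3 also lay higher in HCT116, and LOX and LOXL1 lower, without passing that test.

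The difference between the lines was then tested directly, as the log2 fold change in PC3 minus that in HCT116 in 1 fit over the 14 libraries. The response was smaller in PC3 for 4 of the 10 genes and larger for none. Among all 15493 genes tested, 1.31% had a smaller and 1.01% a larger log2 fold change in PC3. The difference was -1.86 for PLOD2 (SE 0.17, adjusted p = 3.98e-05), -1.35 for P4HA1 (SE 0.17, adjusted p = 5.34e-04), -0.82 for PLOD1 (SE 0.16, adjusted p = 0.0145) and -0.70 for LOXL2 (SE 0.15, adjusted p = 0.0268). The first 3 passed the test under every one of 21 alternatives, whereas LOXL2 missed it in 7. These were the fits without PC3 normoxia replicate 2, PC3 hypoxia replicate 3, any of the 3 normoxic HCT116 libraries, or HCT116 hypoxia replicate 2 or 3, where the adjusted p lay between 0.0504 and 0.0815. For LOX the difference was +0.98 (SE 0.34, adjusted p = 0.159), and it passed only without PC3 normoxia replicate 1 (adjusted p = 0.0481, within a range of 0.0481 to 0.310 over the 21 alternatives). For P4HA2 it was -0.47 (SE 0.17, adjusted p = 0.171) and for P4HB -0.26 (SE 0.14, adjusted p = 0.369). P4HB passed only without PC3 hypoxia replicate 4 (-0.37, adjusted p = 0.0394, within a range of 0.0394 to 0.597).

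The lines also differed before hypoxia. In normoxia 7 of the 10 genes were higher in PC3 and 2 lower, while 42.4% of all genes tested were higher and 38.9% lower, so most genes differed between the lines. LOX was 14.7-fold higher in PC3 (log2 3.88, SE 0.26, adjusted p = 1.25e-09), PLOD2 11.5-fold (log2 3.53, SE 0.14), LOXL1 11.3-fold (log2 3.50, SE 0.20), P4HA1 6.38-fold (log2 2.67, SE 0.13), P4HA3 5.68-fold (log2 2.51, SE 0.20) and LOXL2 5.42-fold (log2 2.44, SE 0.12). PLOD3 was 1.55-fold higher. PLOD1 and P4HB were lower in PC3, by 1.05 and 0.52 on the log2 scale. P4HA2 was at 30.6 to 41.1 CPM in PC3 and 26.3 to 33.2 CPM in HCT116 (log2 0.23, SE 0.12, adjusted p = 0.0827), and it passed the test in 3 of 20 alternatives, by total-count scaling and without PC3 normoxia replicate 4 or HCT116 normoxia replicate 3, within a range of adjusted p from 0.0181 to 0.277.

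The 4 genes whose response differed past the threshold did not share a starting order. P4HA1 and PLOD2 were low in HCT116 at rest, and their ratio of PC3 to HCT116 mean CPM fell from 6.38 to 2.49 and from 11.5 to 3.17 in hypoxia. LOXL2 narrowed from 5.42 to 3.33. PLOD1 was already higher in HCT116, by a ratio of 2.06 in normoxia, and this ratio reached 3.63 in hypoxia. In hypoxia, HCT116 remained below PC3 for P4HA1, PLOD2 and LOXL2, without overlap between their libraries.

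To compare levels between the genes, CPM was divided by gene length, giving CPM per kilobase (RPKM). The order depended on the length used, because the annotation of P4HB spans 11132 exonic bases in all transcripts together and 2437 in the canonical transcript, and that of PLOD2 14518 and 3749. With all exons, P4HA1 (79.1 ± 13.6 RPKM, SD, n = 4) and P4HB (78.2 ± 4.76) led in normoxic PC3 and overlapped, followed by PLOD2 at 23.0 ± 4.27. With the canonical transcript, P4HB led at 357 ± 21.7 RPKM, and P4HA1 (89.2 ± 15.3) and PLOD2 (89.0 ± 16.5) overlapped. In hypoxic PC3 P4HA1 was at 189 ± 18.6 RPKM over all exons, above P4HB at 100.4 ± 14.2. By the canonical transcript P4HB was still above it, at 459 ± 64.7 against 214 ± 21.0 RPKM.

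In HCT116 P4HB and then PLOD1 led by both lengths. P4HB was at 112 ± 3.02 and PLOD1 at 43.3 ± 0.704 RPKM over all exons in normoxia (n = 3), and at 174 ± 8.04 and 113 ± 8.45 RPKM in hypoxia. LOX was the lowest of the 10 genes in HCT116 by both lengths, at 0.0364 ± 0.00466 and 0.0506 ± 0.00182 RPKM over all exons. In PC3 the lowest levels were those of LOX and P4HA3. Of the 9 neighbouring pairs in the order over all exons, 3 did not overlap in normoxic PC3, 6 in hypoxic PC3, 7 in normoxic HCT116 and 8 in hypoxic HCT116. The pairs that overlapped in normoxic PC3 included PLOD2, PLOD1, PLOD3, LOXL1 and LOXL2, which lay in this order between 23.0 and 14.1 RPKM and each overlapped the next.

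The make-up of each family was compared between conditions as shares of the summed canonical-length RPKM. These shares were chosen after the gene values were seen. P4HA1 made up 91.2% ± 0.455 (SD, n = 4) of the 3 alpha subunits in normoxic PC3 and 93.7% ± 0.230 in hypoxia, and 68.1% ± 2.34 (n = 3) and 84.0% ± 1.81 in HCT116. PLOD2 made up 53.6% ± 5.43 and 65.2% ± 4.31 of the lysyl hydroxylases in PC3, where the libraries overlapped, and 7.03% ± 0.362 and 19.8% ± 2.09 in HCT116. PLOD1 remained the major lysyl hydroxylase of HCT116, at 70.4% ± 0.750 and 70.7% ± 1.50. Over all exons its share there was 75.1% in normoxia and 80.1% in hypoxia, without overlap. LOXL2 made up 38.7% ± 0.935 and 51.7% ± 2.47 of the 5 lysyl oxidases in PC3, and 49.7% ± 1.89 and 77.5% ± 3.21 in HCT116. With all exons as the length, PLOD2 was at 36.3% and 47.7% in PC3 and at 3.46% and 10.3% in HCT116. In normoxic PC3 its libraries, at 31.6% to 43.7%, then overlapped those of PLOD1, at 29.1% to 36.3%. P4HA1 was then at 95.2% and 96.6% in PC3 and 80.7% and 91.2% in HCT116, and LOXL2 at 35.7% and 48.1% and at 45.5% and 74.5%.

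**Figure D3:**
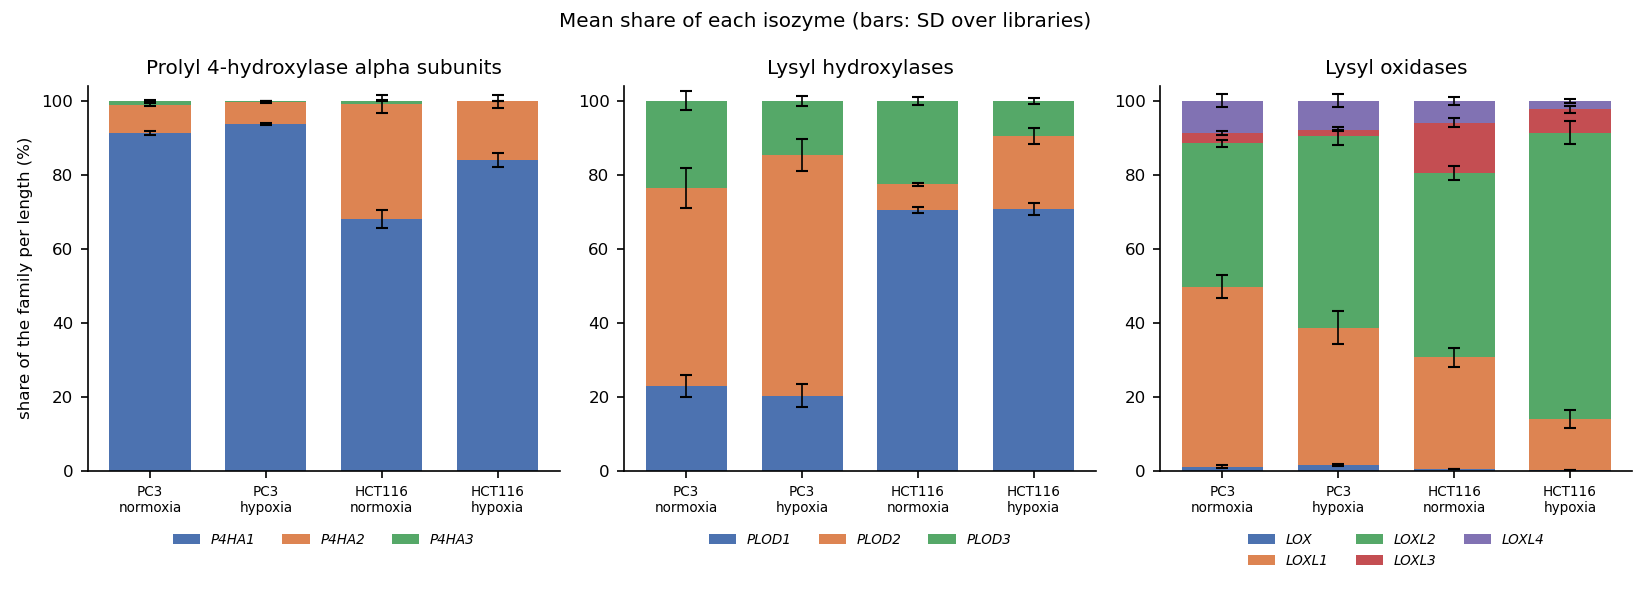
Mean share (%) of each isozyme in the summed canonical-length RPKM of its family, by line and oxygen level; error bars, at the top of each segment, are the SD of its share over 4 (PC3) or 3 (HCT116) libraries. P4HA1 dominated the alpha subunits in all 4 groups. By this length PLOD2 led the lysyl hydroxylases in PC3 and PLOD1 in HCT116. LOXL2 had a larger share in hypoxia in both lines.

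The alpha subunits summed to 27.3 per 100 of P4HB in normoxic PC3 and 49.9 in hypoxia, and to 4.01 and 12.8 in HCT116, in canonical-length RPKM. Over all exons the same values were 105.8 and 196 in PC3 and 13.7 and 47.9 in HCT116, so that the sum was higher in hypoxia with both lengths but the ratio itself depended on them. In a two-sided exact permutation test of these 8 comparisons, P4HA1 and LOXL2 shares and the alpha sum in PC3 gave p = 0.0286, the smallest that 4 against 4 libraries allow, and 0.0762 after adjustment over the 8. The PLOD2 share in PC3 gave an exact p of 0.0571, with hypoxia higher within each of the 4 replicate numbers. The HCT116 comparisons gave 0.1, the smallest that 3 against 3 libraries allow. With these smallest values no adjusted p over the 8 could have passed the threshold, so the adjusted values cannot decide whether a share changed. The permutation did not use the replicate number. Normoxic and hypoxic libraries overlapped only for the PLOD2 share in PC3.

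The genes around these enzymes in collagen synthesis were examined as 9 lists. Of their 90 genes, 77 were tested in PC3, of which 4 rose (5.19%) and 1 fell. In HCT116 66 were tested, of which 17 rose (25.8%) and 5 fell. With the replicate number as a block, 14 rose and 9 fell in PC3, and 19 rose and 4 fell in HCT116. Over all genes that fit called 2125 of 14309 higher and 1949 lower in PC3, and 2098 of 14120 higher and 1656 lower in HCT116. With scaling by total count alone, 4 rose and 5 fell in PC3, and 7 rose and 9 fell in HCT116, which turned the balance there. The balance over all genes turned too, with 562 called higher and 1733 lower in PC3, and 1286 and 3146 in HCT116. The share that rose was near the 6.03% of all genes in PC3. In HCT116 it stood beside 14.6% of all genes, and the difference was not tested. The shares that fell were 1.30% in PC3 and 7.58% in HCT116, beside 5.29% and 11.3% of all genes.

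Of the 2 remaining lysyl oxidases, LOXL4 rose in PC3 from 18.3 to 31.3 CPM (log2 0.78, SE 0.13, adjusted p = 0.00668), while LOXL3 did not pass the test in either line. In HCT116 LOXL4 was at 1.80 and 1.88 CPM. Of the prolyl 3-hydroxylase complex, none of 6 genes passed in PC3, and LEPREL4 fell there with the replicate number as a block (adjusted p = 0.0246). In HCT116 LEPREL4 (log2 0.26) and PPIB (0.27), the cyclophilin of the complex, rose and LEPRE1, its 3-hydroxylase, fell by 0.21. LEPREL1 also rose in HCT116 with the replicate number as a block (adjusted p = 0.012). Neither collagen galactosyltransferase in PC3, nor the 1 tested in HCT116, passed the test. Among 10 procollagen chaperone and export genes, the export adaptor KLHL12 fell in PC3 by 0.31 (adjusted p = 0.0285), and with the replicate number as a block SEC24D, a coat protein of export vesicles, also rose (adjusted p = 0.00518). In HCT116 the collagen chaperone SERPINH1 rose (log2 0.37, adjusted p = 0.00245), and FKBP14 and CTAGE5 fell by 0.29 and 0.40. FKBP14 did not pass in HCT116 with the block (adjusted p = 0.056).

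Of the procollagen proteinases and enhancers, PCOLCE2, an enhancer of C-propeptide removal, rose in both lines, with a log2 fold change of 0.73 in PC3 (adjusted p = 0.0132) and 0.74 in HCT116. BMP1, the C-proteinase, rose by 0.25 in HCT116, and ADAMTS2, the N-proteinase, by 0.52. In PC3 PCOLCE rose and ADAMTS2 fell with the replicate number as a block (adjusted p = 0.0411 and 0.0277). ADAMTS2 was scarce there, at 0.377 CPM in normoxia and 0.171 CPM in hypoxia. PCOLCE also rose in HCT116 with the block (adjusted p = 0.0367). Among lysyl oxidase partners and copper supply, none of 6 genes passed in PC3, where FN1 and ATP7A rose with the replicate number as a block (adjusted p = 0.00818 and 0.0114). FN1 (fibronectin, 0.56) and ATP7A (the copper transporter of the secretory pathway, 0.38) rose in HCT116. The ascorbate transporter SLC23A2 was at 78.7 and 68.8 CPM in PC3 and at 30.9 and 30.8 CPM in HCT116. It passed the test in neither, and with the replicate number as a block it was lower in PC3 (log2 -0.19, adjusted p = 0.0192). Of 15 disulfide isomerase relatives of P4HB tested in PC3, none passed, and with the replicate number as a block PDIA3, PDIA6, AGR2 and TMX1 rose. In HCT116 PDIA3, PDIA4, PDIA5 and PDIA6 rose by 0.21 to 0.29, and TMX3 and DNAJC10 fell by 0.32 and 0.29, while P4HB itself rose by 0.64. With the block in HCT116, PDIA4 did not pass (adjusted p = 0.057) and ERP29 rose (adjusted p = 0.0476).

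**Figure D4:**
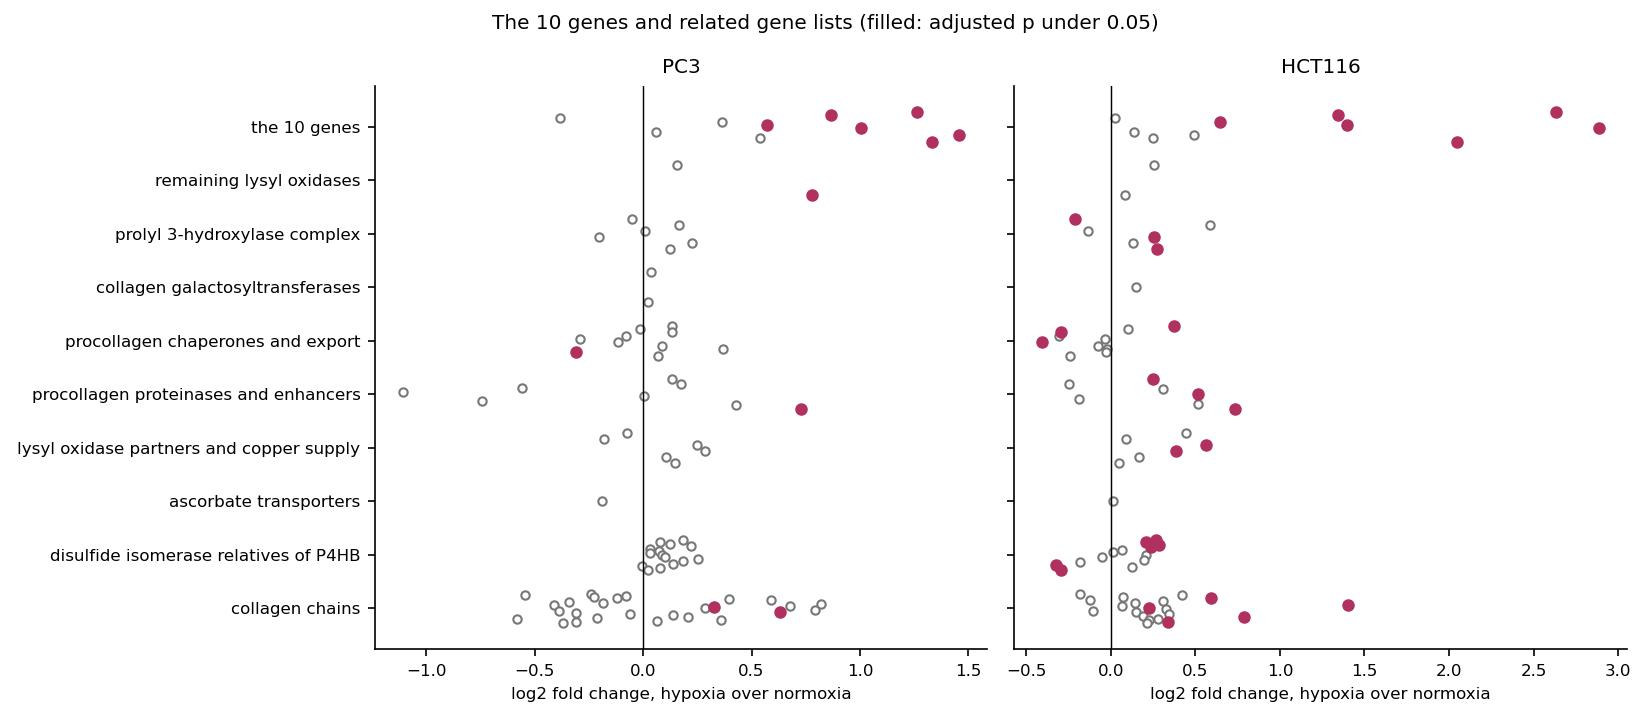
Log2 fold change in hypoxia over normoxia of the 10 genes and of 9 related gene lists in PC3 (left) and HCT116 (right); each point is a tested gene, and filled points passed an adjusted p of 0.05. The filled points of the 10 genes reached 1.46 in PC3 and 2.88 in HCT116, and those of the related lists 0.78 and 1.40.

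The collagen chains are the substrates of these enzymes. Of them 27 were tested in PC3, where 2 rose, and 20 in HCT116, where 5 rose. None fell in this fit. Among all genes tested, 6.03% rose and 5.29% fell in PC3, and 14.6% rose and 11.3% fell in HCT116. With the replicate number as a block, 4 rose and 5 fell in PC3. COL6A2 and COL6A3 were added to those that rose, and COL2A1, COL4A1, COL4A5, COL5A2 and COL16A1 fell (adjusted p = 0.0120 to 0.0359 for these 5). Over all 14309 genes tested in PC3, that fit called 2125 higher and 1949 lower. The collagen counts were not tested against these. In PC3 without the block COL6A1 rose from 656 to 819.7 CPM (log2 0.32, SE 0.070, adjusted p = 0.0192) and COL8A1 from 9.58 to 14.8 CPM (log2 0.63, adjusted p = 0.0183). In HCT116 the 5 were COL4A4 (log2 0.60), COL5A3 (1.40, at 0.0936 and 0.244 CPM), COL6A2 (0.23), COL13A1 (0.79) and COL18A1 (0.34). With the block in HCT116, COL5A3 did not pass (adjusted p = 0.0507) and COL9A3 rose (adjusted p = 0.0097). The median log2 fold changes of the collagen chains tested were -0.081 in PC3 and 0.23 in HCT116. The fibrillar chain COL1A1 was at 8.38 and 7.08 CPM in PC3 and at 10.6 and 9.28 CPM in HCT116, and COL1A2 was near 0 in both. COL6A1 and COL6A2, chains of collagen VI, had the highest CPM of the collagen chains in PC3, with COL6A2 at 540 and 656 CPM.

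The genes most like each enzyme gene raised in both lines were sought by Pearson's r of edgeR's log2 CPM (prior count 1) over the 14 libraries, with the mean of each line subtracted, among the 11199 genes that were tested in both lines and averaged 1 CPM or more in each. These values are a description, since the 14 points form 4 groups by line and oxygen. P4HA1 was most like ANKRD37 (r = 0.994), C4orf3 (0.993) and TMEM45A (0.991). P4HA2 was most like TMEM45A (0.993), TNNT1 (0.990) and ANGPTL4 (0.982). PLOD1 was most like MOB3A, the glycolytic enzyme gene GPI (both 0.996) and NARF (0.993), and PLOD2 was most like BNIP3L (0.995), a mitophagy receptor, KIAA1244 (0.994) and TNIP1 (0.993). LOXL2 was most like PFKFB4 (0.994), which controls glycolysis, GBE1 (0.992), the glycogen branching enzyme, and HK1 (0.992), a hexokinase. A high r did not mean a change of like size. For BNIP3L the log2 fold changes were 0.96 in PC3 and 3.26 in HCT116, beside 1.01 and 2.88 for PLOD2. Those of ANGPTL4 were 3.38 and 4.63 and those of TNNT1 0.38 and 0.59, beside 0.87 and 1.35 for P4HA2.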

How the data were processed

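The authors aligned paired reads to spike-in sequences and then to GRCh37 with HISAT2 2.05, and counted reads per RefSeq gene with HTSeq 0.5.4p3 (intersection-strict). They deposited raw counts for 14 libraries. The RefSeq release and strand setting are not given in the sources used here, and spike-in counts were not used here, so a change shared by all RNA cannot be seen. A count of 3 was at most 0.0421 CPM in a library.

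Genes were filtered with filterByExpr (count minimum 10), scaled by TMM and tested with edgeR 4.0.16 (R 4.3.3) within each line, threshold adjusted p 0.05. The difference between lines and the normoxic comparison came from 1 fit over 14 libraries. SE was the log2 fold change over the root of F. DESeq2 1.42.0 was an alternative. The fit was tested on simulated data, and shares in SciPy 1.17.1. Lengths came from a GENCODE annotation lifted to GRCh37.

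The 10 genes and all lists were chosen with earlier results of these data known. Text names all 10 genes, related genes past the threshold in either line, the check genes and the 3 genes most like each enzyme gene called in both lines. Genes named outside this rule were LOXL3, SLC23A2, COL1A1 and COL1A2, chosen for their role, and genes of the lists past the threshold only with the replicate block, chosen after their values were seen. Some prostate marker genes are not reported here. Replicate pairs differed by more than sampling noise (chi-square per gene 12.1 to 257). Replicates are biological by the study's methods. Normoxic and hypoxic PC3 libraries with the same replicate number deviated together (r = 0.675, 0.267, 0.140 and 0.282), so the numbers were taken as pairs in PC3. The replicate block uses these pairs, and the main fit does not.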

Additional observations from a re-analysis of the deposited data

Results flagged for a closer look

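P4HA1 in normoxic PC3 held a library far from the other 3, replicate 1 at 307 CPM against 219 to 231 CPM. Of 20 groups of 4 libraries examined for such a value over the 10 genes, 1 held one, and chance gives about 1 in 20. Without this library the call for P4HA1 in PC3 was retained.

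The hypoxia response differed between PC3 and HCT116, by a test of the difference itself, for P4HA1 (-1.35 on the log2 scale), PLOD1 (-0.82), PLOD2 (-1.86) and LOXL2 (-0.70), each smaller in PC3. Of the 8 established hypoxia genes, 3 differed in the same direction past the threshold (CA9, -4.35, PDK1, -2.26, and BNIP3, -1.50). SLC2A1 (-0.86), EGLN3 (-0.73), ADM (-0.52) and VEGFA (-0.44) had the same sign without passing (adjusted p from 0.0515 to 0.47). Only NDRG1 had the other sign, at 0.11 (adjusted p = 0.919). The part of these established genes in the result was not tested.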

How the results depend on the processing

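The counts of the 10 genes called higher or lower in each comparison moved by less than 1.5 times under every scaling, filter, tool and replicate block tried, except where a library was left out. When single libraries were removed, the number of genes called higher was 5 to 7 in PC3, 6 in HCT116 and 7 to 8 for PC3 over HCT116 in normoxia, and the difference between lines was called smaller in PC3 for 3 to 5 genes and larger for 0 to 1 (LOX, without PC3 normoxia replicate 1). The numbers pair the samples in PC3, where the replicate block called 8 genes higher in place of 6 (P4HB and LOXL1 added). DESeq2 and the fit over all 14 libraries called the same 8 in PC3, among 1383 and 1219 genes called higher. In HCT116 the same-numbered libraries correlated at 0.0908, 0.138 and 0.0429, each best with its own number, and the block called 6 as before. The block moved the calls over all genes from 1620 to 4074 in PC3, from 3658 to 3754 in HCT116 and from 359 to 1307 for the difference, and changed no other call of the 10 genes. It could not be fitted for the lines in normoxia, whose contrast lies between blocks.

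DESeq2 called 2568 genes in PC3 and 971 for the difference, a fit over all 14 libraries called 2465 in PC3 and 1733 in HCT116, and leaving out 1 library gave 553 to 2085 in PC3 and 177 to 717 for the difference. Scaling by total count shifted the median of all genes by -0.10 in PC3 and -0.090 in HCT116 and turned the share of calls that were higher from 53.3% to 24.5% in PC3 and from 56.3% to 29.0% in HCT116 (upper-quartile scaling, 39.4% in PC3 and 29.3% in place of 43.5% for the difference). All calls of the 10 genes within a line were the same under both scalings. The signs of 2 small changes reversed: PLOD3 in PC3 (-0.048 by total count, -0.019 without hypoxia replicate 4, and up to 0.11 without other libraries) and P4HA3 in HCT116 (-0.067 by total count, and -0.14 to 0.16 with 1 library removed, below 0 without normoxia replicate 1 or 3 or hypoxia replicate 2). P4HA2 between the lines passed by total count (log2 0.31). For the related lists, total count gave 5 lower in PC3 in place of 1, and 7 higher and 9 lower in HCT116 in place of 17 and 5, and the block gave 14 higher and 9 lower in PC3. Neighbours that did not overlap in level in normoxic PC3 numbered 5 in place of 3 by the longest and by the canonical transcript. The canonical transcript for levels, all exons for shares and the joint removal of replicate 1 were alternatives chosen after seeing the data. The cause of these changes was not tested. Counts of 26 to 41 for LOX and 44 to 67 for P4HA3 limit what HCT116 can show for these genes.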
